A study of Mus musculus with 6 samples.

Results

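In cortex taken from mice at embryonic day 18.5, 10 genes that report on signalling through the extracellular signal-regulated kinases (ERK) were followed, 9 of them feedback inhibitors of the pathway. They were taken by symbol: the MAP kinase phosphatase genes Dusp1, Dusp4, Dusp5 and Dusp6, the Sprouty genes Spry1, Spry2 and Spry4, the Spred genes Spred1 and Spred2, and the immediate-early gene Ier2. All 10 were among the 23420 genes of the table, and all 10 passed the filter on low counts, which left 14618 genes tested. The groups were 3 libraries labelled Tshz3 mutant, with KO in their titles, and 3 labelled wild type, with WT in theirs. Each library was a pool of cortices from 3 to 4 embryos. Tshz3, a teashirt family gene, codes for a transcription factor with zinc fingers. The sources used here do not give the Tshz3 allele, its zygosity or the strain, and no treatment is named for either group.

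In the ERK pathway, receptors at the cell surface activate Ras, which switches on the kinases Raf, MEK and ERK in turn, and ERK then drives transcription of immediate-early genes. Among the genes it induces are its own brakes. Dual-specificity phosphatases remove phosphate from MAP kinases, Sprouty proteins act between receptor and Raf, and Spred proteins bring the Ras-inactivating neurofibromin to the membrane. Fibroblast growth factors and neurotrophins use this pathway in the developing cortex, and synaptic activity uses it in neurons.

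Total gene counts ran from 18569383 to 24147810 per library. Transcript of Tshz3 itself stood at 89.8, 93.1 and 99.2 CPM with the mutant label and at 78.7, 83.0 and 89.3 CPM in wild type, so the gene count did not check the labels. CPM are read counts scaled to a common library size after TMM correction of the totals. All 11 neocortical markers were present, with summed levels of 2692 to 2906 CPM in mutant-labelled and 2533 to 2814 CPM in wild-type libraries. Libraries of each genotype carry the numbers 1 to 3, and same-numbered libraries deviated together, so values paired by number stand beside the unpaired ones. The 11 mural and meningeal markers summed to 428 and 503 CPM in mutant-labelled and wild-type library 1 and to 349 CPM in wild-type library 2, against 152 to 202 CPM in the other 3 libraries.

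Promoter sequence is shown for the pair of phosphatase genes whose promoters held a motif of a signal-regulated factor. The promoter table used, from RefSeq on GRCm38.p6, had entries for 7 of the 10 genes, all but Dusp4, Ier2 and Spry4. The 250 bases before each start site were searched on both strands for the CArG box bound by serum response factor, the cyclic AMP response element TGACGTCA, an ETS site CCGGAAG and an EGR site GCGTGGGCG. Among 32851 RefSeq promoters of the same length, 1.47% held a CArG box, 1.55% the cyclic AMP element, 6.91% the ETS site and 0.536% the EGR site. Dusp1 held 1 cyclic AMP response element, beginning 143 bases before the start site, and Dusp5 held 2 CArG boxes side by side, beginning 82 and 72 bases before it. None of these matches overlapped another motif searched, and none of the 4 motifs was found in the windows of Dusp6, Spry1, Spry2, Spred1 and Spred2. RefSeq starts Spred1 at base 117121071 and GENCODE M21 at 117121374, and the bases after the RefSeq start were in no GENCODE transcript of it. The Spred1 window is thus less certain. A match describes letters in the window and is no measured binding. The motifs are in capitals below, 5′ to 3′, for Dusp1 at chr17:26508473-26508722 on the minus strand and Dusp5 at chr19:53528895-53529144 on the plus strand.
Dusp1: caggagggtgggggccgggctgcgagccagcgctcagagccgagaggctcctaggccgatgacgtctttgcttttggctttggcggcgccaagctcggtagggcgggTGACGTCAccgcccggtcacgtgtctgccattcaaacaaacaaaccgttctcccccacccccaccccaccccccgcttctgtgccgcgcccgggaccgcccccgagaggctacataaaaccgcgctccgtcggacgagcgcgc
Dusp5: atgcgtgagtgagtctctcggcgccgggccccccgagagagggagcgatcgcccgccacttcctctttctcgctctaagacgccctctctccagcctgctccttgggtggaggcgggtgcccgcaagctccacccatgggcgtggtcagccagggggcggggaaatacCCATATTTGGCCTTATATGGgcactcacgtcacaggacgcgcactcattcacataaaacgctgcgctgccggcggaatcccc

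Of the 10 genes, 2 differed between the genotypes once libraries were paired, and they moved in opposite directions. Ier2 was lower in the mutant-labelled libraries, at 0.613 of the wild-type level, and the phosphatase gene Dusp4 was 1.24-fold higher. The Sprouty and Spred genes and Dusp1, Dusp5 and Dusp6 passed neither fit. Without pairing, edgeR's quasi-likelihood test called 0 of the 10 at a Benjamini-Hochberg adjusted p of 0.05, where it called 0.0752% of all genes tested, and 2 of the 10 had an unadjusted p under 0.05, as had 7.09% of all genes. With the library number as a block it called 1 higher and 1 lower, where it called 3.46% of all genes, 1.97% higher and 1.49% lower. DESeq2, run without pairing, called Ier2 alone, where it called 0.719% of all genes. The median log2 fold change was 0.00 over the 10 genes and −0.01 over all genes tested.

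Ier2 encodes a nuclear protein whose transcript is induced within minutes of growth factor or calcium signals, and its gene is intronless and lies on the minus strand of chromosome 8 (GRCm38, 84661331 to 84662852). Its level was 9.52, 7.92 and 8.51 CPM in mutant-labelled libraries 1, 2 and 3, and 12.8, 14.0 and 15.5 CPM in wild-type libraries 1, 2 and 3. Each mutant-labelled library thus lay below each wild-type library. These values rest on 169 to 202 reads per mutant-labelled library and 270 to 290 reads per wild-type library. The group means were 8.65 ± 0.808 and 14.1 ± 1.36 CPM (SD, n = 3 each), and the log2 fold change was −0.71 (SE 0.12, 95% interval −0.99 to −0.42). Its adjusted p in edgeR was 0.162 unpaired and 0.00307 paired, and 0.00349 in DESeq2. Within the pairs of same-numbered libraries 1, 2 and 3 the log2 ratio was −0.42, −0.81 and −0.86, so the direction was the same in 3 of 3 pairs, as it was for 39.0% of all genes tested. The paired edgeR call was lost without pair 3 (log2 fold change −0.62, adjusted p = 0.135). It was kept without pair 1 (−0.84, 0.00021) and without pair 2 (−0.64, 9.44e-06). Fits with a pair left out have 1 residual degree of freedom. They called 295 genes in all without pair 1, 1874 without pair 2 and 62 without pair 3, against 506 with every pair.

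**Figure D1:**
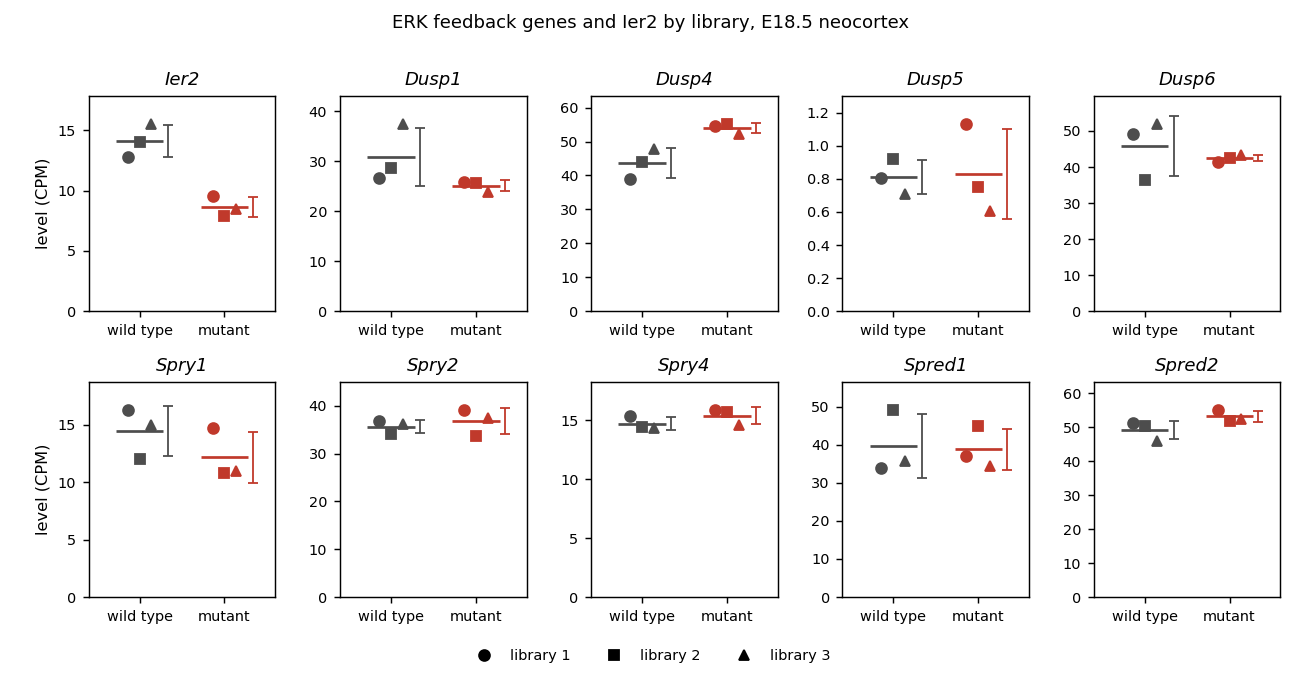
Level of each gene in CPM (vertical axes, from 0) in the 3 wild-type and 3 mutant-labelled libraries; symbols give the library number, horizontal bars the group mean and error bars the SD. Ier2 lies at 7.92 to 9.52 CPM in mutant-labelled and 12.8 to 15.5 CPM in wild-type libraries, and Dusp4 at 52.2 to 55.2 against 38.9 to 47.9 CPM.

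Among the phosphatases, Dusp4 and Dusp1 encode nuclear enzymes that act on more than one class of MAP kinase, Dusp5 a nuclear enzyme selective for ERK, and Dusp6 a cytoplasmic enzyme selective for ERK. Dusp4 (chromosome 8, plus strand, 34807610 to 34819894 in RefSeq) was at 54.5, 55.2 and 52.2 CPM in mutant-labelled libraries 1 to 3 and at 38.9, 44.1 and 47.9 CPM in wild-type libraries 1 to 3. All 3 mutant-labelled values were above all 3 wild-type values, and they lay closer together, at 53.9 ± 1.57 against 43.6 ± 4.48 CPM (SD, n = 3 each). The log2 fold change was 0.31 (SE 0.08, 95% interval 0.11 to 0.50), with an edgeR adjusted p of 0.443 unpaired and 0.0236 paired, and 0.252 in DESeq2. Within pairs 1, 2 and 3 the log2 ratio was 0.48, 0.32 and 0.12. The paired edgeR call was lost without pair 1 (log2 fold change 0.23, adjusted p = 0.143) or pair 3 (0.41, 0.0764). It was kept without pair 2 (0.31, 0.000335), where the fit called 1874 genes in all, against 506 with every pair.

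Dusp1, a classical immediate-early phosphatase gene, was at 25.9, 25.6 and 23.8 CPM in mutant-labelled libraries 1 to 3 and at 26.6, 28.7 and 37.5 CPM in wild-type libraries 1 to 3. The groups did not overlap, though mutant-labelled library 1 and wild-type library 1 were nearly equal and wild-type library 3 was well above the rest. Its log2 fold change was −0.30 (SE 0.13, 95% interval −0.60 to 0.00), with an edgeR adjusted p of 0.709 unpaired and 0.208 paired. Without pair 2 the paired fit called Dusp1 lower (log2 fold change −0.34, adjusted p = 0.00135), whereas without pair 3 the value was −0.10 (0.818). That fit called 1874 genes in all without pair 2 and 62 without pair 3, against 506 with every pair. GENCODE M21 also gives Dusp1 a distant start inside the opposite-strand gene Ergic1, and how reads of that part were counted is not known.

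Dusp6, the phosphatase gene most often used as a readout of fibroblast growth factor signalling, was at 41.5, 42.6 and 43.3 CPM in mutant-labelled libraries 1 to 3 and at 49.2, 36.3 and 51.9 CPM in wild-type libraries 1 to 3. Wild-type library 2 lay below and the other 2 wild-type libraries above all mutant-labelled ones, so the groups overlapped. The coefficient of variation was 2.12% in mutant-labelled and 18.2% in wild-type libraries, a difference in spread that was not tested. The log2 fold change was −0.11 (SE 0.13, 95% interval −0.41 to 0.19; edgeR adjusted p = 0.938, paired 0.659). Without pair 2 the paired fit called Dusp6 lower (−0.25, adjusted p = 0.0056), and without pair 3 the value was −0.01 (0.994). As for Dusp1, the call without pair 2 was 1 of 1874 in all.

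Dusp5 was near the limit of detection, with 12 to 24 reads per library and levels of 0.604 to 1.13 CPM. Its log2 fold change of 0.03 had a 95% interval of −0.71 to 0.77. The interval includes a difference as large as that of Ier2, so a change of that size is not excluded. An antisense transcript overlaps the start of the gene in GENCODE M21, which makes its low count uncertain.

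**Figure D2:**
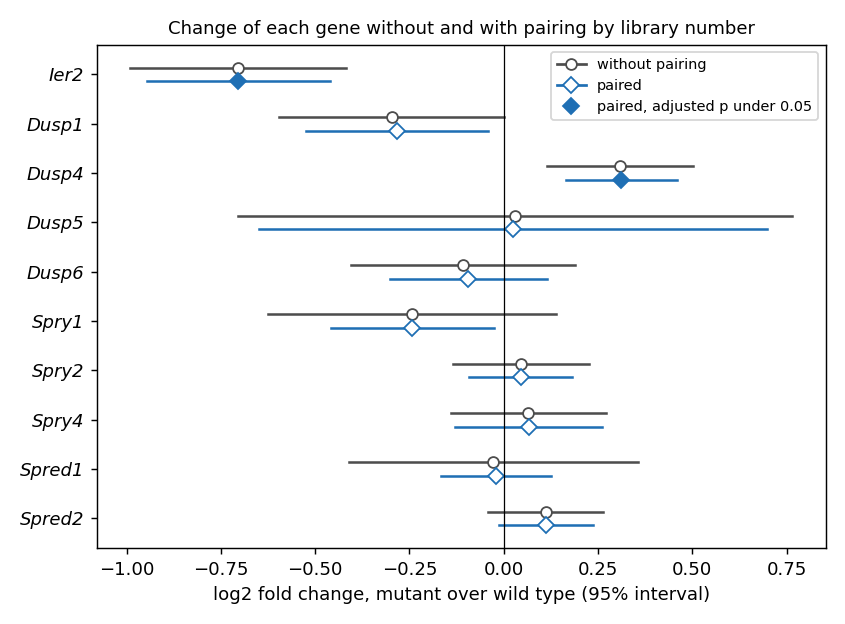
Log2 fold change of each gene, mutant-labelled over wild type (horizontal axis), with 95% intervals, from edgeR without pairing (circles) and with the library number as a block (diamonds, filled where the adjusted p was under 0.05). Filled symbols mark Ier2 at −0.70 and Dusp4 at 0.31, and the intervals of Spry2, Spry4, Spred1, Spred2, Dusp5 and Dusp6 include 0 in both fits. Those of Dusp1 and Spry1 include 0 without pairing and lie below 0 with it (−0.53 to −0.04 and −0.46 to −0.03). These intervals are not adjusted for the number of genes, and neither gene passed the threshold.

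The 3 Sprouty genes did not pass either fit. Spry2 was at 39.2, 33.7 and 37.5 CPM in mutant-labelled libraries and 36.7, 34.1 and 36.1 CPM in wild-type libraries 1 to 3, with a log2 fold change of 0.05 (SE 0.08, 95% interval −0.13 to 0.23). Spry4 was at 15.9, 15.7 and 14.6 against 15.3, 14.4 and 14.4 CPM, with a log2 fold change of 0.07 (95% interval −0.14 to 0.27). For both genes the groups overlapped, and the intervals leave out changes as large as that of Ier2.

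Spry1 differed between libraries of 1 genotype more than the other Sprouty genes. It was at 14.8, 10.8 and 11.0 CPM in mutant-labelled libraries 1 to 3 and at 16.3, 12.03 and 15.0 CPM in wild-type libraries 1 to 3. The log2 fold change was −0.24 (SE 0.17, 95% interval −0.63 to 0.14; edgeR adjusted p = 0.833, paired 0.222). In both genotypes library 1 had the highest Spry1 level. Library 1 also had the highest sum of 10 endothelial markers in each genotype, at 209 CPM in mutant-labelled and 223 CPM in wild type against 164 to 190 CPM in the other 4 libraries, and the highest mural and meningeal sum. All 11 mural and meningeal markers had a negative log2 fold change (median −0.32), as had 8 of the 10 endothelial markers (median −0.06). Of these markers 0 passed either edgeR fit, and both sums overlapped between the genotypes. Sums of astrocyte, microglial and blood markers were also highest in library 1 of each genotype. Wild-type library 3 had 15.0 CPM of Spry1 beside the lowest mural and meningeal sum, 152.5 CPM. What part any of these cells had in the Spry1 levels was not tested. Without both libraries 1 the paired log2 fold change of Spry1 was −0.30. In whole tissue, fewer cells of a type and less RNA per cell cannot be told apart. A transcript of unverified coding status on the opposite strand overlaps the Spry1 start in GENCODE M21, so its count is also uncertain.

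Of the Spred genes, Spred2 was at 55.1, 52.0 and 52.3 CPM in mutant-labelled libraries 1 to 3 and at 51.2, 50.3 and 46.1 CPM in wild-type libraries 1 to 3. Every mutant-labelled library was above every wild-type library, by a small margin, and the log2 fold change was 0.11 (SE 0.07, 95% interval −0.04 to 0.26; edgeR adjusted p = 0.813, paired 0.335). Spred1 was at 37.1, 44.8 and 34.4 against 33.9, 49.2 and 35.6 CPM. It was highest in library 2 of each genotype, and its log2 fold change of −0.03 (SE 0.16, 95% interval −0.41 to 0.35) had a paired SE of 0.07. Groups did not overlap for 4 of the 10 genes, Dusp4 and Spred2 upward and Dusp1 and Ier2 downward, where 13.5% of all genes tested had groups that did not overlap, 7.42% upward and 6.09% downward.

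**Figure D3:**
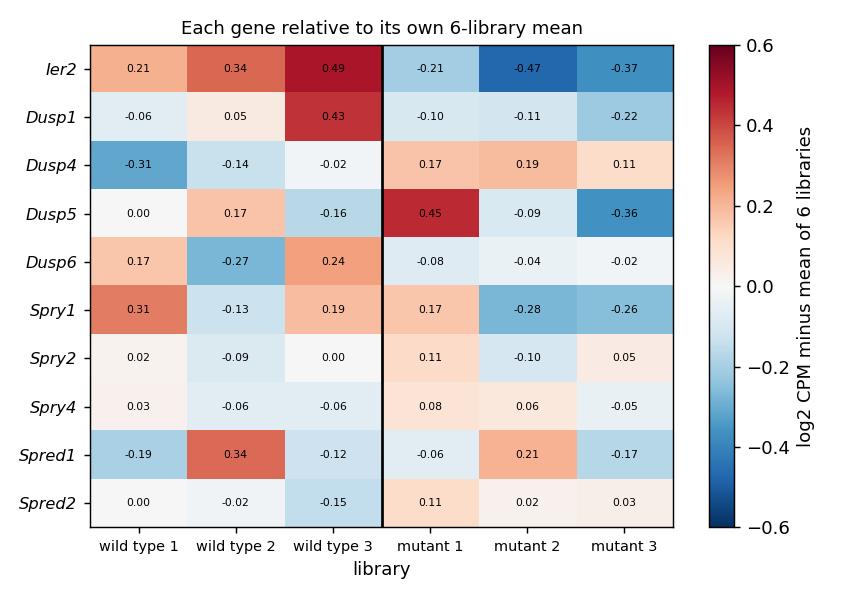
Log2 CPM of each gene minus its mean over the 6 libraries (colour and printed value), wild-type libraries to the left of the line and mutant-labelled ones to the right. Ier2 is above its mean in the 3 wild-type and below it in the 3 mutant-labelled libraries, Dusp4 shows the reverse, and Spred1 is highest in library 2 of both genotypes.

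Set per kilobase of exon, as the union of all GENCODE M21 exons of a gene, the wild-type level (mean ± SD, n = 3) was highest for Spry2, at 17.1 ± 0.673 CPM per kilobase. Dusp4 followed at 15.9 ± 1.63 and Dusp6 at 14.6 ± 2.67, and the wild-type libraries of neighbours among these 3 genes overlapped. Below them and apart from Dusp6 came Spred2, at 10.7 ± 0.595, whose libraries overlapped those of Dusp1 at 9.34 ± 1.74, which in turn overlapped those of Ier2 at 9.27 ± 0.893. Spred1 at 5.83 ± 1.23 lay below Ier2 without overlap and overlapped Spry1 at 4.97 ± 0.754. Spry4, at 3.09 ± 0.113, and Dusp5, at 0.328 ± 0.0425, each lay below the gene before it without overlap. In the mutant-labelled libraries Dusp4 came first, at 19.7 ± 0.572 CPM per kilobase, above Spry2 at 17.6 ± 1.33 in 3 of 3 libraries and without overlap. Ier2 there was at 5.68 ± 0.531, overlapping Spred1 at 5.72 ± 0.797. The exon lengths assume that all annotated exons were in use.

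The other genes of the pathway were read from 4 lists of 100 names between them; the table held 99 and 96 were tested. Without pairing, edgeR called 1 of the 96, Egr1, where it called 0.0752% of all genes tested. With pairing it called 2 higher and 8 lower, where it called 1.97% of all genes higher and 1.49% lower. That paired count was 11 without pair 1, 17 without pair 2 and 3 without pair 3. The same fits called 295, 1874 and 62 genes in all, against 506 with every pair. The median log2 fold change over the 96 was −0.05.

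The cascade itself, from Ras and its exchange factors to ERK and the kinases ERK activates, was read from 36 genes. Of these, 0 passed edgeR's test in either fit and 0 were called by DESeq2, and the median log2 fold change was −0.03. Unpaired, 2 of the 36 had an unadjusted p under 0.05, as had 7.09% of all genes. The paired fit called 3.46% of all genes. The smallest p-values belonged to Rasgrp1, a calcium- and diacylglycerol-regulated activator of Ras, Rras2, a Ras relative, and Mapkapk2, a kinase downstream of p38. Rasgrp1 was at 12.7, 13.3 and 13.2 CPM in mutant-labelled libraries and 18.8, 15.2 and 17.2 CPM in wild type, with −0.38 as log2 fold change (SE 0.11, edgeR adjusted p = 0.444, paired 0.052). Rras2 had a log2 fold change of 0.20 (paired adjusted p = 0.0842) and Mapkapk2 one of −0.16 (0.171).

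Of 17 other feedback inhibitors and Ras regulators tested, 0 passed either edgeR fit and 0 passed DESeq2, and the median was −0.03. Unpaired, 1 of the 17 had an unadjusted p under 0.05, as had 7.09% of all genes. That gene was Dusp2, another nuclear and inducible phosphatase, at 5.28, 4.71 and 4.78 CPM in mutant-labelled libraries and 5.69, 6.81 and 6.86 CPM in wild type. The difference in log2 was −0.39 (SE 0.14, edgeR adjusted p = 0.615, paired 0.158). Dusp14 had a log2 fold change of −0.25 and Flrt3, a membrane protein that binds fibroblast growth factor receptors, one of −0.09. Dusp8, a phosphatase gene named after its value was seen, had a log2 fold change of 0.00. Dusp10, Dusp16, Dusp3 and Dusp7, added beside it, were at −0.21, −0.13, −0.05 and −0.04. Of the 17 genes, 11 had a negative and 6 a positive log2 fold change.

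Of 15 transcription factor genes linked to ERK, the paired fit called Elk1 and Elk4 lower and Mkl2 higher, while 0 passed edgeR unpaired or DESeq2, with 2 at an unadjusted p under 0.05 unpaired. Over all genes tested the paired fit called 3.46%, and 7.09% had an unadjusted p under 0.05. Elk1 and Elk4 encode partners of serum response factor that ERK phosphorylates, and Mkl2 encodes an actin-regulated partner of the same factor. Elk1 was at 62.6, 69.4 and 68.8 CPM in mutant-labelled libraries and 77.7, 74.6 and 87.0 CPM in wild type, without overlap, which is a difference of −0.25 in log2 (SE 0.08; edgeR adjusted p = 0.483, paired 0.022). Elk4 was at 0.848, 2.75 and 1.36 against 2.51, 4.97 and 3.27 CPM. Its groups overlapped, and its log2 fold change was −1.10 unpaired (SE 0.44, adjusted p = 0.678) and −1.14 paired (SE 0.20, adjusted p = 0.00549). Mkl2 had a log2 fold change of 0.27 (adjusted p = 0.75, paired 0.0206).

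Of 31 tested genes known to be induced through ERK, the paired fit called Egr1, Egr2, Fosb, Maff, Ier5l and Plk2 lower and Fosl2 higher, and 24 did not pass. Over all genes tested the paired share was 3.46%, 1.97% higher and 1.49% lower. Unpaired, edgeR called Egr1 alone (0.0752% of all genes), and 13 of the 31 had an unadjusted p under 0.05 (7.09% of all genes). DESeq2 called 4 of the list and 0.719% of all genes. The list median was −0.18, and groups did not overlap in 14 genes downward and 1 upward, against 6.09% and 7.42% of all genes. This list was chosen with earlier results for its Egr and Fos genes already known. Egr1, an immediate-early transcription factor, was at 15.6, 13.8 and 13.1 CPM in mutant-labelled libraries and 48.0, 51.1 and 53.3 CPM in wild type, and Fos was at 3.44, 2.58 and 2.06 against 6.26, 7.97 and 13.5 CPM. Egr1 passed both edgeR fits (log2 fold change −1.84, SE 0.09). For Fos the log2 fold change was −1.77 (SE 0.33), which passed neither edgeR fit (adjusted p = 0.19, paired 0.112) and passed DESeq2 (8.77e-05). Egr2 and Fosb had paired log2 fold changes of −1.78 (SE 0.29) and −1.51 (SE 0.30).

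Maff, a small bZIP factor gene, was at 3.25, 2.25 and 2.32 CPM in mutant-labelled libraries against 4.08, 4.20 and 4.74 CPM in wild type, with a paired difference of −0.74 in log2 (SE 0.18, edgeR adjusted p = 0.0377). Ier5l, a relative of Ier2, was at 5.51, 7.05 and 7.00 against 8.30, 9.90 and 9.74 CPM (−0.52, SE 0.12, adjusted p = 0.0251). Plk2, an activity-induced kinase gene, had a paired log2 fold change of −0.18 (SE 0.04). Fosl2, an AP-1 subunit gene, was higher in every pair, at 86.9, 106 and 107 CPM against 59.4, 75.7 and 70.9 CPM, with a log2 fold change of 0.54 (unpaired SE 0.11 and adjusted p = 0.263, paired SE 0.05 and adjusted p = 1.63e-05).

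Another 4 genes of these lists were named after their values were seen, so they stand for no class of genes. Etv4 and Etv5, ETS factor genes induced by fibroblast growth factor, had log2 fold changes of 0.15 (SE 0.11) and −0.11 (SE 0.05). Phlda1 had one of −0.22 (SE 0.13) and Ccnd1, the cyclin D1 gene, one of 0.04 (SE 0.12). None of the 4 passed either edgeR fit, with paired adjusted p-values of 0.444, 0.243, 0.329 and 0.772. The groups of Etv5 did not overlap, at 65.5, 68.6 and 66.1 CPM in mutant-labelled libraries and 70.8, 73.1 and 72.3 CPM in wild type. Of all genes tested, 6.09% had groups apart in that direction.

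**Figure D4:**
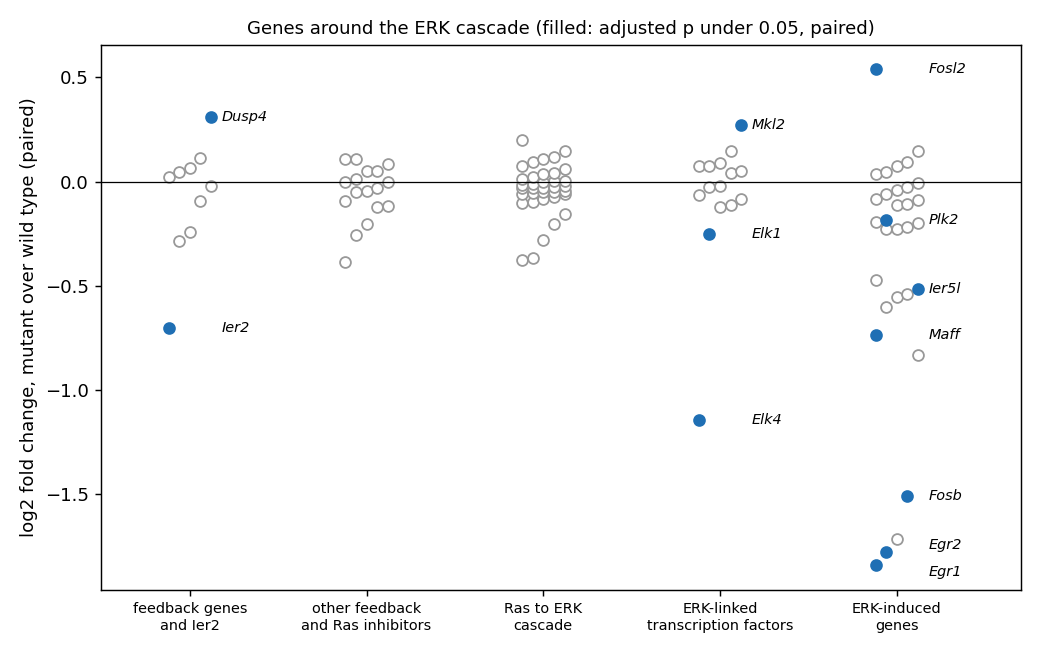
Paired log2 fold change, mutant-labelled over wild type (vertical axis), of the 10 genes and of 4 lists of genes around the ERK cascade, 1 point per tested gene, filled and named where the paired adjusted p was under 0.05. The cascade list and the list of other feedback and Ras inhibitors hold no filled point, and the list of ERK-induced genes reaches from −1.84 for Egr1 to 0.54 for Fosl2.

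The genes whose log2 CPM followed Dusp4 most closely over the 6 libraries, among 11458 compared at 5 CPM or more, were Narf (Pearson r = 0.988), Pdf (0.984) and Ccdc167 (0.979). For Ier2 they were Zfp52 (0.994), Ngfr, the p75 neurotrophin receptor gene (0.993), and 1810032O08Rik (0.991). These are descriptions over 6 libraries of 2 genotypes, picked as the highest of many.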

How the data were processed

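Libraries of total RNA from 6 neocortex pools used the TruSeq stranded kit, per the labels' protocols. The deposited table holds raw read counts per symbol, not normalized. In the submitters' processing notes stand HTSeq 0.5.3p9, Bowtie2 2.1.0, TopHat2 2.0.9, CASAVA 1.8.2 and the build mm10. Roles, settings, annotation and strand mode are not given, so how reads in overlapping genes were counted is not known. No column of sample values was left unused (0).

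The test was edgeR's quasi-likelihood test (4.0.16, R 4.3.3; robust dispersion, TMM, default expression filter, two-sided, Benjamini-Hochberg over 14618 genes, threshold 0.05). SEs come from the F statistic, and 95% intervals use the t quantile at the moderated degrees of freedom. CPM use TMM-scaled totals, and log2 CPM for ratios within pairs a prior count of 2. Totals of 18569383 to 24147810 counts set the precision, and intervals of genes with few reads are wide. Libraries of 1 genotype differed beyond sampling noise (chi-square per degree of freedom 6.67 to 21.6 over genes with at least 20 counts). Since a library pools embryos of several litters, p-values measure spread between pools.

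The unpaired fit is the main one. Pairing was checked from each library's deviations from its group mean across genes: same-numbered libraries correlated at 0.61, 0.51 and 0.47, all over the bound of 0.1, and other combinations at −0.48 to −0.07. The pairing comes from the data, since the labels do not say what a number marks. Same-number correlations of this size can arise without true pairs in 3 against 3. Alternatives were the replicate block, RLE and upper-quartile scaling, DESeq2 1.42.0, no filter, each library or pair left out and, added after the data were seen, both libraries 1 left out unpaired.

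The members and lists were chosen with earlier results of these data known. Named genes were the 10 members, Tshz3, Egr1 and Fos, in each other list every gene called in either fit or else the 3 with the smallest p, and for each called member the 3 genes of at least 5 CPM with the highest Pearson r. Dusp8, Dusp10, Dusp16, Dusp3, Dusp7, Etv4, Etv5, Phlda1 and Ccnd1 fall outside that rule and were named after their values were seen. Promoter sequences are RefSeq's (GRCm38.p6), and exon lengths GENCODE M21's, on the build named in the processing notes.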

Additional observations from a re-analysis of the deposited data

How the results depend on the processing

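With the replicate block, edgeR called 506 genes in all, 2 of the 10 genes described here and 10 of the other pathway genes, against 11, 0 and 1 without it. Upper-quartile scaling called 17 genes in all and no filter 20. DESeq2 called 102 in all, 1 of the 10 and 4 of the other pathway genes. RLE scaling changed no count. Leaving out 1 library without the block gave 3 to 35 genes in all, the highest without wild-type library 2, and 0 of the 10 each time. Leaving out 1 pair with the block gave 62 genes without pair 3, 295 without pair 1 and 1874 without pair 2, with 0, 1 and 4 of the 10 and 3, 11 and 17 of the other pathway genes. Without both libraries 1 and without the block, 2 genes were called in all. With a pair gone the blocked fit has 1 residual degree of freedom, so these counts are coarse, and the cause of the differences was not tested. Of 150 values of the 10 genes under these alternatives, 133 kept their direction and side of the threshold, 8 moved past it and 9 changed sign. The sign changes were all in genes that passed no fit. Dusp5 ranged from −0.25 to 0.21 with 1 library left out and from −0.26 to 0.20 with 1 pair left out, Spry2 from −0.0014 to 0.11 with 1 library left out, and Spred1 from −0.15 to 0.16 with 1 library and from −0.09 to 0.044 with 1 pair left out. Without both libraries 1, unpaired, Dusp5 was at −0.26. Dusp5 had the fewest reads of the 10 genes, and the part of read depth in its range was not tested.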
